A study of Mus musculus with 2 samples.

Results

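Mir29a and Mir29c are a pair of mouse miRNA genes best known for repressing collagens and other proteins of the extracellular matrix. They were chosen by symbol, as the rows of the miRNA count tables whose gene identifier carries either name in GENCODE M21, and are 2 of 2202 annotated miRNA genes. The tables come from microRNA sequencing of adrenal gland tissue, the organ that joins a steroid-producing cortex with a catecholamine-producing medulla. The 2 libraries form 1 group. Both come from B6CASTF1/J females aged 4 days, hybrid mice of C57BL/6J and CAST/EiJ parents, and the labels name no treatment or engineered allele. Biological replicates 1 and 2 are described as separate females, yet a single donor identifier stands on both labels. If that identifier means a shared source, the spread given here is technical. With no second condition, the data show how many reads each gene had in this tissue and how the libraries differ.

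MiRNAs are cut from hairpin transcripts into short mature strands, of which one arm usually becomes the active guide. The guide pairs with matching sites in the 3′ untranslated region (UTR) of mRNAs, mostly through its seed, bases 2 to 8, and lowers the output of those mRNAs. The miR-29 family is known from fibroblasts and other matrix-producing cells, where its level falls during fibrosis while collagen output goes up. The 3p arm is the known guide of the family.

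The mature 3p strands are printed to show what the members share and what sets them apart, with the seed in capitals. The sequences are those of RefSeq (build GRCm38.p6), which held all 4 Mir29 genes.
miR-29a-3p: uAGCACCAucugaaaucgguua
miR-29c-3p: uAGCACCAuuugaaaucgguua
miR-29b-3p: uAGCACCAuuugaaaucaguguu
All 3 strands carry the seed AGCACCA. Across the mature mouse miRNAs of the RefSeq table, 4 entries had this seed, and these were the 3p strands of Mir29a, Mir29c, Mir29b-1 and Mir29b-2. Counted from 1 at the 5′ end, with the miR-29a base first, miR-29a and miR-29c differ by the single substitution C10U and match at the other 21 of 22 bases. With the miR-29c base first, miR-29c and miR-29b match for their first 17 bases and then differ by G18A, U21G and A22U.

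The hairpins are shown with both mature arms in capitals, because reads were counted per hairpin and not per arm.
Mir29a hairpin: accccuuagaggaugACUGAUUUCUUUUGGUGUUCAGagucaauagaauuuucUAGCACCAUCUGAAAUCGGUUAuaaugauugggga
Mir29c hairpin: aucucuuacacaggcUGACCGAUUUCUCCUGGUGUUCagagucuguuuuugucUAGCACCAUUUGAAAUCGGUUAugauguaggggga
Both hairpins have 88 bases, so a comparison of their levels per length gives the same ratio as one of their reads. The longest run that they share has 14 bases. Mir29a shares no run of 18 bases with any other miRNA hairpin in the tables. Mir29c shares such runs with Mir29b-1 (longest 22 bases) and Mir29b-2 (longest 19 bases). These longest runs begin before the mature 3p strand, and miR-29c-3p and miR-29b-3p share only their first 17 bases. A read that lies wholly within a run could map to more than one of these genes and be lost. A miR-29c-3p read that reaches base 18 differs from miR-29b-3p there. The mature sequences of miR-29a-3p and miR-29c-3p were each found in 1 hairpin, whereas that of miR-29b-3p was found in 2.

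Each member has a miR-29b gene as its close neighbour. Mir29a (ENSMUSG00000065610.1) lies at chr6:31062660-31062747 on the minus strand (mm10, the build of the tables). It overlaps no other annotated gene, and the nearest protein-coding gene is Klf14, 103581 bases away. Mir29b-1 (ENSMUSG00000065604.2; chr6:31063023-31063093, minus strand) lies 275 bases upstream of it. Mir29c (ENSMUSG00000065548.1) lies at chr1:195037547-195037634 on the plus strand, 426 bases downstream of Mir29b-2 (ENSMUSG00000065412.3; chr1:195037040-195037120, plus strand). Both hairpins on chromosome 1 lie inside an annotated exon of the non-coding host gene A330023F24Rik, and on the opposite strand inside an annotated exon of Cd46, which codes for a complement regulator. No read was counted in the column taken as the opposite strand of any of the 4 genes in either library. A count of 0 allows up to 6.05e-05% of the miRNA reads in replicate 1 and 6.66e-05% in replicate 2, so signal from Cd46 was not detectable at Mir29c.

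**Figure D1:**
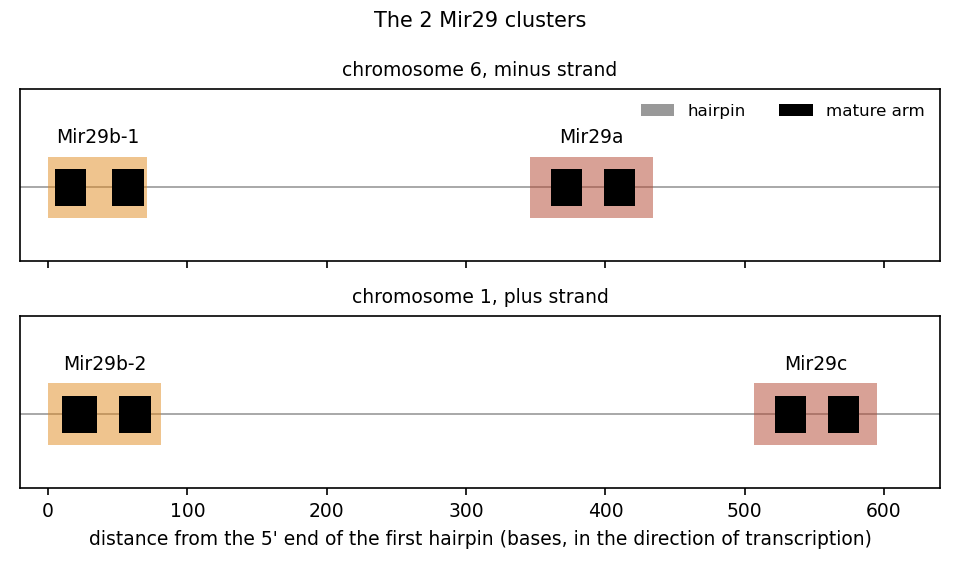
Map of the Mir29 clusters, drawn to scale in the direction of transcription, with distance in bases from the 5′ end of the first hairpin on the horizontal axis. In both clusters a Mir29b hairpin comes first, followed by Mir29a after 275 bases or Mir29c after 426 bases; black boxes are the mature arms.

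Reads assigned to miRNA genes on their annotated strand numbered 4960537 in replicate 1 and 4506482 in replicate 2, and 377 genes had at least 10 reads in both and are called detected. Levels are shares of these reads, scaled so that each library sums to 1000000 (CPM). A read with several mapping places counted for no gene. Genes that share a mature strand with another gene can thus be counted too low. The ranks and the median gene given below depend on this rule.

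Mir29a was a moderately abundant miRNA of this tissue. It had 7831 reads in replicate 1 and 3519 in replicate 2. In CPM its level was 1579 in replicate 1, with a 95% Wilson interval of 1544 to 1614. In replicate 2 it was 780.9, with an interval of 755.5 to 807.1. The mean was 1179.8 CPM ± 564 (SD, n = 2), with the higher value in replicate 1 and intervals that do not overlap. Mir29a ranked 84th of the 377 detected genes by mean CPM, 71st in replicate 1 and 92nd in replicate 2. Its mean was 7.87 times that of the median detected gene (149.9 CPM).

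Mir29c was present at a much lower level. It had 1455 reads, or 293.3 CPM (interval 278.6 to 308.8), in replicate 1. In replicate 2 it had 578 reads, or 128.3 CPM (118.2 to 139.2). The mean was 210.8 CPM ± 117 (SD, n = 2), again with the higher value in replicate 1. Mir29c ranked 165th, just above the middle of the detected genes, at 1.41 times the level of the median one. It ranked 157th in replicate 1 and 181st in replicate 2. These intervals and limits cover counting error only, since amplified reads with no molecular identifier are not independent molecules.

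The members differed from each other by more than they varied between libraries. The lowest Mir29a value, 780.9 CPM, was above the highest Mir29c value, 293.3 CPM. Mir29a had 5.38 times the reads of Mir29c in replicate 1 and 6.09 times in replicate 2. In replicate 1, Mir29a made up 84.3% of the reads of the pair (Wilson 95% bounds 83.6 and 85.1). In replicate 2 it made up 85.9% (bounds 84.8 and 86.9). The mean share was 85.1% ± 1.10 (SD, n = 2), and scaling between libraries does not enter it. The ratio of Mir29a to Mir29c reads was slightly lower in replicate 1 (odds ratio of replicate 1 over replicate 2 0.884, 95% interval 0.795 to 0.982, Fisher's exact test, two-sided, p = 0.0215). That test compares the libraries by counting error alone. Reads counted on either strand give the same result by construction, since neither gene had a read on the opposite strand. Together the pair took 0.187% of the miRNA reads in replicate 1 and 0.0909% in replicate 2.

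Mir29b-1 and Mir29b-2, which share one 3p strand, were counted far below their neighbours. Mir29b-1 had 127 and 62 reads in replicates 1 and 2 (mean 19.7 CPM ± 8.38, SD, n = 2). Mir29b-2 had 20 and 15 reads (mean 3.68 CPM ± 0.497, SD, n = 2). The order Mir29a, Mir29c, Mir29b-1, Mir29b-2 held in both libraries. The full miR-29b-3p sequence lies in both Mir29b hairpins, so a read of it maps to several places and counts for no gene. These values therefore set no level for miR-29b, and the ratio of each member to the miR-29b gene beside it cannot be read from the counts. Of the 4 genes' reads, the pair held 98.4% in replicate 1 and 98.2% in replicate 2.

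**Figure D2:**
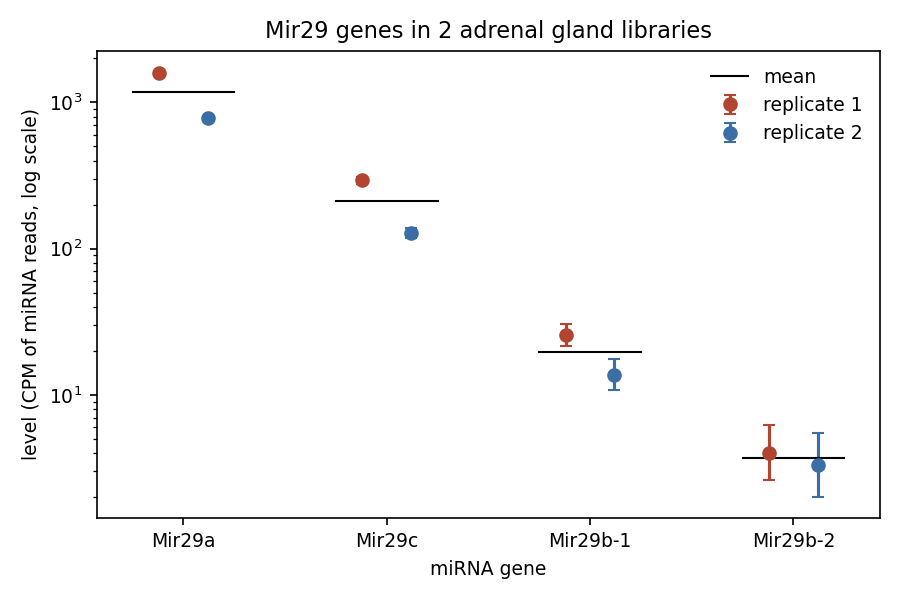
Level of the 4 Mir29 genes (CPM of miRNA reads, log scale) in replicate 1 and replicate 2, with 95% Wilson intervals as error bars and the mean as a black line. Mir29a lies at 1579 and 780.9 CPM and Mir29c at 293.3 and 128.3 CPM; the Mir29b genes hold only reads that map to 1 place.

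Both members were higher in replicate 1 than in replicate 2. For the ratios, library sizes were scaled by TMM factors, which are meant to offset the effect of a few dominant genes. Mir29a was 1.85-fold higher in replicate 1 (log2 ratio 0.88, replicate 1 over replicate 2, with a 95% exact interval of 0.83 to 0.94, adjusted p = 8.5e-213, exact two-sided binomial test). Mir29c was 2.09-fold higher (log2 ratio 1.06, interval 0.92 to 1.20, adjusted p = 1.5e-54, same exact test). Mir29b-1 was 1.70-fold higher (log2 ratio 0.76, interval 0.32 to 1.23, adjusted p = 0.00097, same exact test). Mir29b-2 had a log2 ratio of 0.15 with an interval of -0.89 to 1.22 and did not pass (adjusted p = 0.91, exact binomial test). With 20 and 15 reads, that interval holds the ratios of both members.

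Such differences were common in these libraries. The same test called 68.2% of the 377 detected genes, with 32.6% higher in replicate 1 and 35.5% higher in replicate 2, so a call by itself does not set the members apart. The median log2 ratio over the detected genes was -0.04, and 53 genes had a higher ratio than Mir29a and 40 a higher one than Mir29c. The middle 80% of the genes lay between -0.76 and 1.11, a range that holds both members. The binomial test sets one library against the other, not a condition against a condition, and allows for no error but counting. By edgeR's exact test with a dispersion common to all genes, which called 1.86% of them, Mir29a had an unadjusted p of 0.332 and Mir29c one of 0.248 (adjusted p = 1.0 for both). That dispersion was estimated from the difference between the same 2 libraries, so these p-values say nothing about whether the members differ between animals.

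**Figure D3:**
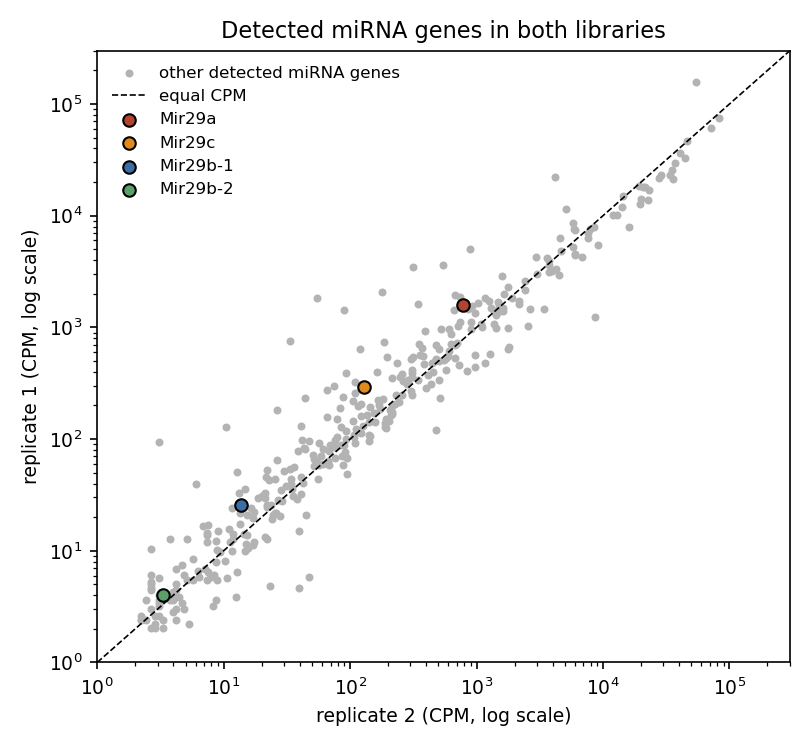
CPM of the 377 detected miRNA genes in replicate 1 (vertical) and replicate 2 (horizontal), both on log scales, with the Mir29 genes in colour and a dashed line of equal CPM. All 4 Mir29 genes lie above the line and within the cloud of the other genes.

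The lists used here hold no miRNA that defines the adrenal gland, so the tissue label was checked only through miRNAs of other sources. Several miRNAs typical of particular cells differed between the libraries, as did 68.2% of all detected genes by the same binomial test. Of all detected genes, 32.6% were called higher in replicate 1 and 35.5% higher in replicate 2, so a call alone does not set a marker apart. The epithelial miR-200 family, with 5 genes, summed to 4224 CPM in replicate 1 against 191.9 CPM in replicate 2, and all 5 were called higher in replicate 1. Endothelial Mir126a had 156832 and 54709 CPM in replicates 1 and 2, kidney-enriched Mir192 had 180.8 and 26.4 CPM and erythroid Mir451a had 737.8 and 184.2 CPM, all higher in replicate 1. In the other direction, the muscle miRNA Mir206 had 1239 and 8627 CPM, liver-enriched Mir122 had 1449 and 2638 CPM, and neuroendocrine Mir375 had 36379.5 and 41025 CPM. The difference of Mir375 depends on the scaling. Its log2 ratio by TMM was -0.30, and totals without Mir126a shift all log2 ratios by 0.30 towards replicate 1. Of 4 mesenchymal markers, Mir214 was called higher in replicate 1, Mir143 and Mir145a higher in replicate 2, and Mir199a-1 was not detected (8 and 0 reads). The Mir199a-1 hairpin shares runs with others, so its low count is uncertain and does not show that the miRNA was absent. These 4 summed to 30154 CPM in replicate 1, against 37479 CPM in replicate 2. Most of both sums was Mir143, with 25848 and 35132 CPM. The part of these cell types in the difference of Mir29a and Mir29c was not tested. In bulk tissue, fewer cells of a type and less of a miRNA per cell cannot be told apart.

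The genes nearest to each member were sought over both libraries by the distance of log2(CPM + 1). For Mir29a they were Mir154 (distance 0.171; 1488 and 865.9 CPM in replicates 1 and 2), Mir181c (0.172; 1467 and 858.3 CPM) and Mir92-1 (0.239; 1544 and 920.5 CPM). For Mir29c they were Mir182 (0.269; 324.2 and 109.4 CPM), Mir24-2 (0.304; 257.4 and 108.5 CPM) and Mir186 (0.508; 206.8 and 121.6 CPM). All 6 were higher in replicate 1, a direction that the choice by likeness to the members largely sets. The Mir24-2 hairpin shares runs with others, so its count and its distance to Mir29c are uncertain. Mir154 belongs to the imprinted miRNA cluster of the Dlk1-Dio3 region, as does Mir380, and Mir182 to the cluster of Mir183. In the order of mean CPM, Mir29a stood between Mir380 (1202 CPM ± 802) and Mir154 (1177 CPM ± 440), and Mir29c between Mir150 (215.8 CPM ± 15.5) and Mir700 (206.0 CPM ± 31.4; SD, n = 2 for each). Neither member differed from these neighbours in rank by more than the spread between libraries, which the choice by rank largely sets. Mir380 went the other way, with 635.2 CPM in replicate 1 against 1769.5 CPM in replicate 2 at nearly the mean of Mir29a.

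A list of 36 other miRNAs linked to fibrosis or to the extracellular matrix places the members among genes of related roles. It includes their cluster partners Mir29b-1 and Mir29b-2. Mir192, the miR-200 family and the 4 mesenchymal markers given above are also on it, so it is not separate from those markers. Of the list, 33 genes were detected. Mir29a was less abundant than 9 of them, which were also all those with a mean of at least 1000 CPM. The highest were Mir143, a smooth muscle and mesenchymal miRNA (30489.9 CPM ± 6565), Mir26b (25835 CPM ± 3920) and Mir21a, which is known to promote fibrosis (18888 CPM ± 591; SD, n = 2 for each). Mir378a, Mir98, Mir30a, Mir27b, Mir214 and Mir145a followed, from 16092 down to 1234 CPM. Mature strands have nearly the same length, but ligation and amplification differ between sequences, so levels of different miRNAs are compared as reads only.

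Of the 33 detected genes, 20 were called higher in replicate 1, 10 higher in replicate 2 and 3 had no call, against 32.6% and 35.5% of all tested genes. The list's median log2 ratio was 0.29, beside -0.04 for all tested genes. Scaled by totals without Mir126a, 24 were called higher in replicate 1, against 6 for replicate 2. Of all 377 tested genes, 189 and 77 were called in these directions by that scaling. It shifts the log2 ratios of all genes, listed or not, by 0.30 towards replicate 1. The list's median was then 0.59, and Mir21a, Mir30c-1, Mir30c-2, Mir150 and Mir98 changed sign. Mir30c-2, which had no call, also changed sign under the other 3 scalings. By TMM the range ran from Mir26a-1 (log2 ratio -3.15; 29 and 214 reads in replicates 1 and 2) to Mir200b (4.92). The Mir26a-1 hairpin shares runs with others, so its count is uncertain, and the related Mir26a-2, also with shared runs, had a log2 ratio of 1.16. The miR-200 family makes up 5 of the 20, which also include Mir192 and the cluster partner Mir29b-1. Mir29b-2 was among the 3 with no call. Mir101b, which has been linked to less matrix deposition, had a log2 ratio of 0.89 and was the listed gene next to Mir29a. Mir21a was 1.15-fold higher in replicate 2 (log2 ratio -0.20), the reverse of both members, with the change of sign by totals without Mir126a given above. Mir143 (log2 ratio -0.57) and Mir145a (-1.57), also higher in replicate 2, kept their sign under every scaling tried. The list held hairpins that share runs with others at 15 of its detected genes, whose counts are uncertain.

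**Figure D4:**
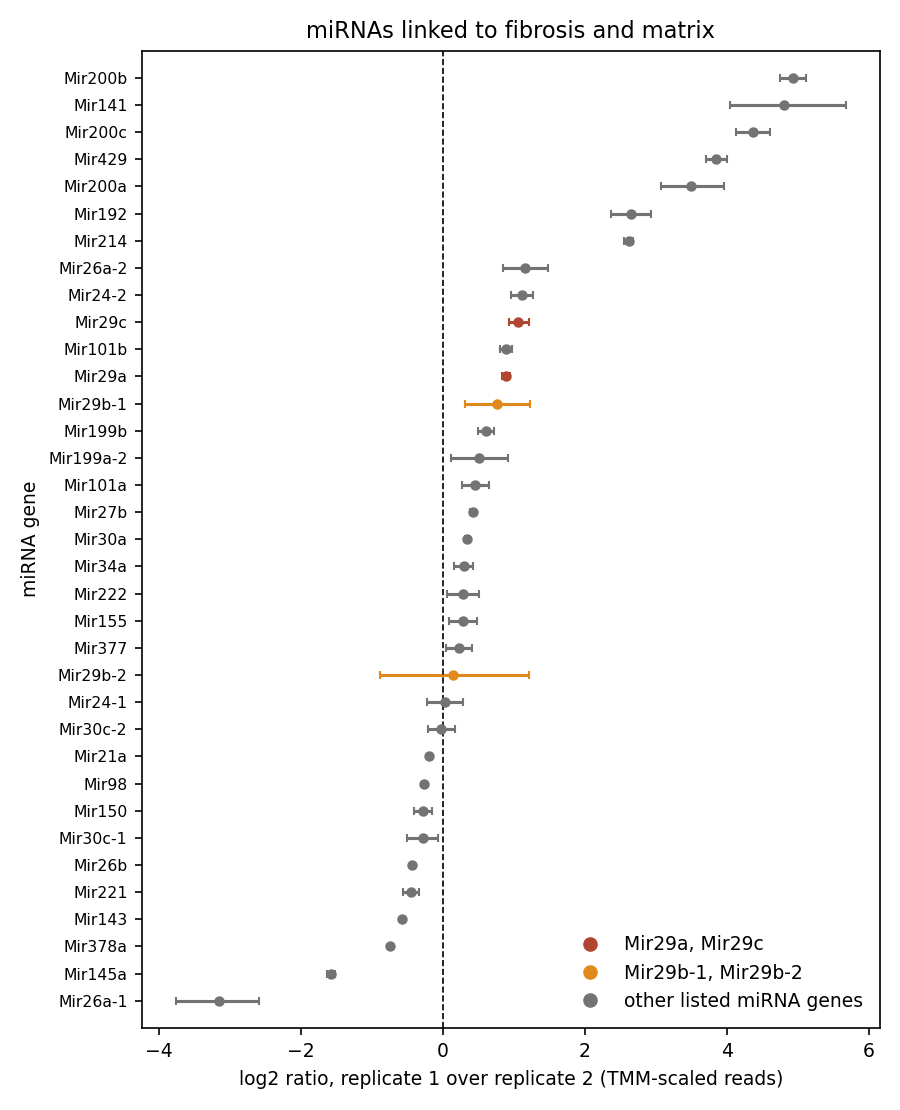
Log2 ratio of TMM-scaled reads, replicate 1 over replicate 2, for Mir29a, Mir29c and the 33 detected genes of the list, with 95% exact intervals for counting error. Mir29a (0.88) and Mir29c (1.06) lie to the right of the dashed line of no difference, next to Mir101b and Mir24-2 and well to the left of the miR-200 family.

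Because the members share their seed, they share their seed matches. In the annotated 3′ UTRs of mouse genes (GENCODE M21, longest 3′ UTR per gene, the transcribed strand only), the 7 letters TGGTGCT, which pair with bases 2 to 8, were counted. They occurred in 25 of 44 collagen genes (56.8%), against 13.1% of the 20981 protein-coding genes with an annotated 3′ UTR. The density was 0.693 matches per kb of collagen 3′ UTR and 0.106 per kb over all genes. For windows of equal length, the first 1000 bases of each 3′ UTR that long held a match in 12 of 24 collagen genes (50.0%) and in 1028 of 10237 such genes overall. Of the 44 matches in collagen genes, 43.2% were followed by an A, the base that strengthens a site, beside 19.0% of the matches in all genes. A match is a description of sequence, and no mRNA or protein was measured here.

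The collagens with at least 3 matches were Col26a1, Col4a3 and Col5a1 with 4 each and Col4a5 and Col5a3 with 3 each. Col4a3 and Col4a5 code for chains of the basement membrane network, and Col5a1 and Col5a3 for chains of fibrillar type V collagen. Col1a1 and Col3a1, the main fibrillar collagens of connective tissue, had 1 match each, and Col1a2 had 0 (all 3 chosen after their values were seen). A second form of site, the letters GGTGCTA, which pair with bases 2 to 7 and end in A, was added after these values were seen. Where it is preceded by T it coincides with the first form and was not counted again. It occurred in 18.2% of collagen genes and 4.06% of all genes, 2 times in Col1a1 and once each in Col3a1 and Col1a2. With either form, 61.4% of collagen genes and 16.1% of all genes had a match.

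All 3 sites of Col4a5 and one each of other collagens are printed with the seed match in capitals, as the mRNA-sense strand of GRCm38, because pairing of this kind is the known route by which miR-29 acts on collagens.
Col4a5, chrX:141688237-141688260, plus strand: ccactgctcccaccaaTGGTGCTa
Col4a5, chrX:141688518-141688541, plus strand: gaagtattctttttcaTGGTGCTa
Col4a5, chrX:141688941-141688964, plus strand: ataattcttattattcTGGTGCTa
Col5a1, chr2:28038018-28038041, plus strand: ttacacttgtctcttgTGGTGCTa
Col1a1, chr11:94952522-94952545, plus strand: ggtgggaaggaatttcTGGTGCTa
Col3a1, chr1:45348966-45348989, plus strand: cttcaaaatgtctcaaTGGTGCTa
In all 6 the capitals pair with the seed printed above for miR-29a-3p and miR-29c-3p and are followed by an A. The printed sites are not a fair sample of the matches in this respect. Of the 4 matches each in Col5a1, Col26a1 and Col4a3, 2, 0 and 0 were followed by an A. The base at which the members differ, C10U, lies outside the pairing shown in capitals.

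**Figure D5:**
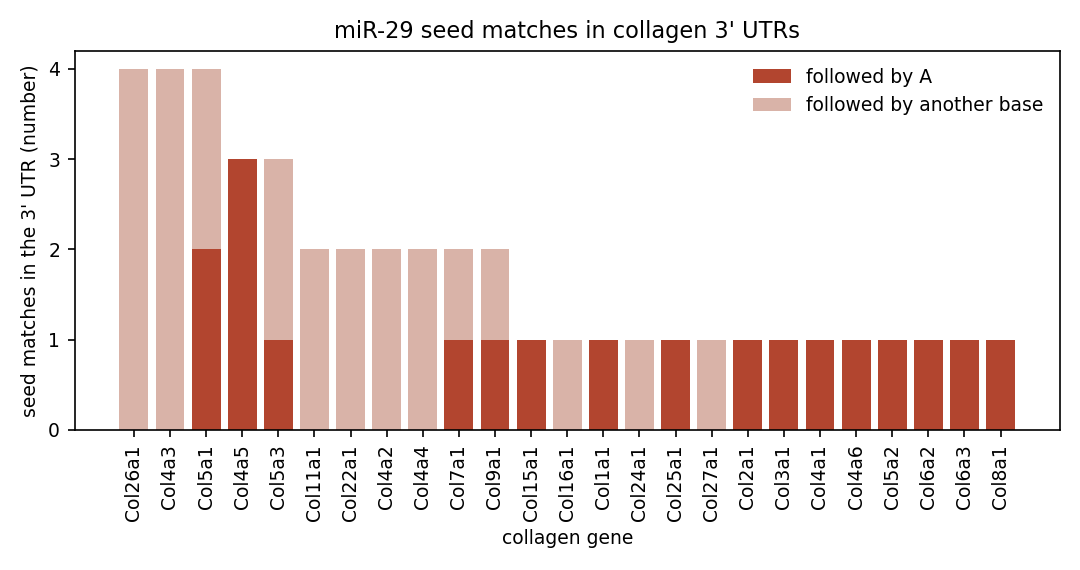
Number of seed matches in the 3′ UTR of each of the 25 collagen genes with a match, with matches followed by A in dark red and the others in light red. Col26a1, Col4a3 and Col5a1 have 4 matches each, and all 3 matches of Col4a5 are followed by A.

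Among 26 other genes tied to matrix assembly or named as miR-29 targets, 21 had a match (80.8%, 0.646 per kb). The counts were highest in the DNA demethylases Tet3 (8), Tet1 (7) and Tet2 (5) and in the DNA methyltransferase Dnmt3a (5). Eln, the gene of elastin, Lox, which crosslinks collagen, and the cell cycle kinase Cdk6 had 3 each. Sparc, Nid1, Serpinh1, Mmp15 and Hbp1 had 0 of this form, though the second form occurred 2 times in Sparc and once in Serpinh1. Several of these genes entered the list because they are known targets, so their high share is no independent evidence.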

How the data were processed

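MicroRNA-seq libraries of under 30 bases were made from adrenal gland tissue in 1 group of 2 samples. The authors deposited raw read counts per miRNA gene, with assembly mm10 and annotation M21 per the file headers. Aligner and counter were not given in the sources used here. Tables hold counts on either strand, the annotated strand and the opposite strand, an assignment read from the values; the annotated strand was used. Rows that name no gene (57.6% and 60.1% of 11704395 and 11288855 reads in replicates 1 and 2, of which multi-mapping reads were 25.9% and 27.8% of all) stayed out of totals. All gene identifiers matched GENCODE M21. The libraries were not copies of each other (chi-square 566135 on 376 degrees of freedom).

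CPM used miRNA reads. Ratios used TMM factors of edgeR 4.0.16 (1.05 and 0.956), an exact binomial test per gene, and Benjamini-Hochberg adjustment over 377 genes with at least 10 reads in both libraries, called at 0.05. The test was checked on simulated data. Shares carry Wilson intervals (scipy 1.17.1). Alternatives were total reads, DESeq2 1.42.0 size factors, totals without Mir126a, other filters and an edgeR exact test between libraries at the common dispersion (biological coefficient of variation 0.433). Genes to be named were the Mir29 genes, the 3 nearest to each member and those next to it in rank, listed genes of at least 1000 CPM or with the extreme ratios, and genes with at least 3 seed matches. Members and lists were chosen with earlier results of these data known. A CAST/EiJ sequence difference could lower a count in both libraries.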

Additional observations from a re-analysis of the deposited data

How the results depend on the processing

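Mir29a and Mir29c kept their direction, higher in replicate 1, under every scaling tried. The log2 ratio of Mir29a was 1.02 by total miRNA reads, 0.93 by DESeq2 size factors, 1.18 by totals without Mir126a and 0.96 by TMM factors from detected genes only, the last chosen after seeing the data. For Mir29c these were 1.19, 1.11, 1.36 and 1.14. Against TMM, scaling by total reads shifted all log2 ratios by 0.13 and totals without Mir126a shifted them by 0.30, so the members' place among the genes stayed the same. The calls of both members were lost with edgeR's exact test (log2 ratios 0.88 and 1.06, adjusted p = 1.0 for both), which called 7 genes in place of 257, with 24 at an unadjusted p under 0.05. That test sets 1 library against 1 and takes its error from the differences of all genes between the same libraries. By this construction it can call only genes whose ratios stand far out from those of the others. The lost calls therefore do not bear on the stability of either member. The other scalings called 253 to 266 of the same 377 genes. With no filter on low counts, 264 of 831 genes were called, and with at least 100 reads on average, 233 of 284. The share of genes called thus depends on the filter. Of the called genes, 47.9% were higher in replicate 1 by TMM and 71.1% by totals without Mir126a. As CPM of all reads, unmapped ones included, Mir29a averaged 490.4 and Mir29c 87.8, by construction of the larger total. With Mir126a left out of the total, the means were 1349.2 CPM for Mir29a and 241.8 CPM for Mir29c. By reads counted on either strand they were 1432.0 and 256.6 CPM. The members' own reads were the same in each case, so only the total changed. As a share of the counted reads of all 4 Mir29 genes, Mir29a held 83.7%. Full miR-29b-3p reads are missing from that total, so it is not a share of the family. Each library alone gave 780.9 to 1579 CPM for Mir29a, 128.3 to 293.3 CPM for Mir29c and 84.3% to 85.9% for the Mir29a share. No paired analysis was possible because there is 1 group. With 2 libraries no value here has a test against the spread between more animals.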
